A study of Homo sapiens with 8 samples.

Results

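The 9 genes examined were RUNX2, SP7, ALPL, SPP1, IBSP, SPARC, DLX5, MSX2 and TWIST1, a set of osteoblast lineage genes that was listed by symbol and mapped to the Ensembl identifiers of the deposited tables with GENCODE release 29. They were 9 of 58735 genes in the tables, and each was found once. The question was which bone-lineage genes U2OS cells, an established human osteosarcoma line, express, and how their RNA stood when WSB2 was knocked down and when the cells met TNF-α. WSB2 is a substrate receptor of a ubiquitin ligase that acts on the NF-κB subunit RelA, and TNF-α is the cytokine used here to switch NF-κB on. Bulk RNA-sequencing covered 4 groups of 2 libraries each: U2OS cells carrying a control shRNA without stimulation (control cells), U2OS cells carrying an shRNA against WSB2 without stimulation (KD cells), and the same 2 kinds of cells after 5 h of TNF-α. All groups were puromycin-selected populations that stably carried a pLKO.1 lentiviral vector, so the control cells had been transduced and selected too. The paper names a control shRNA for these libraries and an empty vector as the control elsewhere. Which WSB2 shRNA was used for these libraries and the concentration of TNF-α are not given in the sources used here. Nothing says that the paired libraries of a group came from separate cultures, so the p-values below measure the spread between these libraries, which may be technical.

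Osteoblasts arise from mesenchymal progenitors under RUNX2, the runt-domain transcription factor required for bone formation, and SP7 (osterix), a zinc finger factor that acts downstream of it. The homeodomain proteins DLX5 and MSX2 and the basic helix-loop-helix protein TWIST1 set the timing of this step, TWIST1 largely as an inhibitor of RUNX2. Committed cells then make alkaline phosphatase (ALPL), the ectoenzyme that removes pyrophosphate and so permits mineral to form, and the matrix glycoproteins osteonectin (SPARC), osteopontin (SPP1) and bone sialoprotein (IBSP).

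Promoter sequence was read from RefSeq windows of 300 bases on GRCh38.p14, from 250 bases before a transcription start to 50 after it. The table held 9 windows for 6 of the 9 genes, and had none for SP7, DLX5 and TWIST1. Shown 5′ to 3′ on the plus strand are the stretches that end just before the first annotated exon, for 4 genes that were detected and for IBSP, which was not. Capitals mark 3 motifs that were searched on both strands: the RUNX core TGTGGT or ACCACA, the homeodomain core TAATTA, which is its own reverse complement, and the TATA element TATAAA or TTTATA. These letters were present in 13.1%, 4.84% and 11.5% of 35116 RefSeq windows of the same length.

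RUNX2, upstream window, chr6:45328080-45328156: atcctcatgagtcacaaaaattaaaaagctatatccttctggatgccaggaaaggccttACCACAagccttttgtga
SPP1, chr4:87975464-87975649: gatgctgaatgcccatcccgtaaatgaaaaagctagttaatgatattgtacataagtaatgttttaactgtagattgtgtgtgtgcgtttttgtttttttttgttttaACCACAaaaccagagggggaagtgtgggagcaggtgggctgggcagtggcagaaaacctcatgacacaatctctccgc
MSX2, chr5:174724332-174724532: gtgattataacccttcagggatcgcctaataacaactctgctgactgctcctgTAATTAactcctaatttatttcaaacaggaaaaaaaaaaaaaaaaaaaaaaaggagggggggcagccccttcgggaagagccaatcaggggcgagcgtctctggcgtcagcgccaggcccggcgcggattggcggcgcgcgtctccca
ALPL, second of 3 windows, chr1:21509173-21509371: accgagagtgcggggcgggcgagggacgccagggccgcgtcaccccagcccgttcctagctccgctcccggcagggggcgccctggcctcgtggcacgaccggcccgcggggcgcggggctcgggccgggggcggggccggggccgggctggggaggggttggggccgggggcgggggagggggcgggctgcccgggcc
IBSP, chr4:87799304-87799580: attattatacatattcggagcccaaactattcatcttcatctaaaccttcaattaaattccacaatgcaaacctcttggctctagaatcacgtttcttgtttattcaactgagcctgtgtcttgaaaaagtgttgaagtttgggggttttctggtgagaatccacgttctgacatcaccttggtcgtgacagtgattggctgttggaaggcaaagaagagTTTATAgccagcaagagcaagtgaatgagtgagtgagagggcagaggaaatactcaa

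The RUNX2 window held 4 ACCACA matches. Their first bases lay 191 and 87 bases before and 16 and 24 bases after the start, and the first of them is in the stretch shown. The SPP1 window held the same letters once, 142 bases before the start, in the capitals above. MSX2 had 1 TAATTA match 197 bases before its start, and the silent IBSP window had TTTATA 30 bases before its start. The ALPL window was 82.3% G and C and had TTTATA 29 bases before its start, beyond the stretch shown. A match of 6 letters is a description of the sequence and no evidence of binding.

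The libraries held 15601098 to 18677023 gene-assigned reads, recovered from the FPKM steps. WSB2 was read at 27.7 and 28.0 FPKM (fragments per kilobase of exon, scaled to library size by the authors) in control cells and at 8.38 and 8.52 in KD cells, and at 25.0 and 25.3 against 9.0 and 9.18 after TNF-α, so the target was low in every KD library. The unstimulated KD libraries stood apart from the other 6. Mitochondrial transcripts made up 4.10% and 4.42% of their reads, against 1.11% to 2.03%. The mean GC content of the genes read, weighted by reads, was 50.1% and 50.6%, against 53.2% to 53.8%. They had a read on 26225 and 26397 genes, against 22072 to 22957, and the size by which the authors divided was 1.21 times the recovered total, against 0.925 to 1.03. KD without TNF-α, TNF-α in KD cells and the interaction all rest on these libraries, and for the 5 genes tested, for the counts of each list and for named genes whose call ended or whose value moved by over 1.5 times, the values after a correction of every library for GC content and gene length stand beside them. The correction follows GC content and length alone, whatever the level of a gene. Genes with few reads can therefore gain a call or change its sign with it. What sets these libraries apart was not tested.

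Of the 9 genes, 5 were above 1 FPKM on average, 2 were near the counting limit and 2 had no read. Besides any 1 of these 5, 10286 of 19951 protein-coding genes were tested and had a mean of at least 1 FPKM. Each of those 5 (SPARC, MSX2, ALPL, RUNX2 and SPP1) had at least 24 reads in every library and entered the tests. SPARC (ENSG00000113140, GRCh38 chr5:151661096-151687165, minus strand) was the most abundant, at 255.7 FPKM on average and 216.1 to 293.2 over the libraries, and ranked 120 of 19951 protein-coding genes by its mean. Next came MSX2 (ENSG00000120149, chr5:174724533-174730893, plus strand) at 5.59 FPKM, ALPL (ENSG00000162551, chr1:21509372-21578412, plus strand) at 3.56, RUNX2 (ENSG00000124813, chr6:45328157-45664349, plus strand) at 1.93 and SPP1 (ENSG00000118785, chr4:87975650-87983426, plus strand) at 1.28. SPARC was 45.7 times MSX2 and higher in 8 of 8 libraries. The order among the other 4 was not the same in every library, since MSX2 was above ALPL in 7, ALPL above RUNX2 in 6 and RUNX2 above SPP1 in 7 of 8, and their ranges over the libraries overlapped.

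The remaining 4 genes were not tested. DLX5 (ENSG00000105880, chr7:97020392-97024950, minus strand) had 16 reads in all, 1 to 3 per library, which put it at 0.0289 to 0.111 FPKM. SP7 (ENSG00000170374, chr12:53326575-53345315, minus strand) had 1 read, in replicate 2 of the control cells, and 0 in the other 7 libraries. IBSP (ENSG00000029559, chr4:87799581-87812435, plus strand) and TWIST1 (ENSG00000122691, chr7:19020991-19117672, minus strand) had 0 reads in all 8 libraries. In a single library a count of 0 allows up to 3 reads, counting error only. In 1 library SP7 could thus have stood at 0.0443 to 0.0586 FPKM, IBSP at 0.0979 to 0.129 and TWIST1 at 0.0745 to 0.0984 without being seen. Over the 8 libraries together the limit is lower than these. Reads in exons that 2 genes share could have been left out of the counting, but no exon base of SP7 or IBSP and 6.94% of those of TWIST1 lie in exons of another gene. The osteoblast programme was thus read in part. Of the early factors RUNX2 and MSX2 were read, DLX5 was near the counting limit and TWIST1 had no read. Of the products of committed cells ALPL, SPARC and SPP1 were read and IBSP was not. SP7, which acts downstream of RUNX2, was not detectable beyond a single read.

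**Figure D1:**
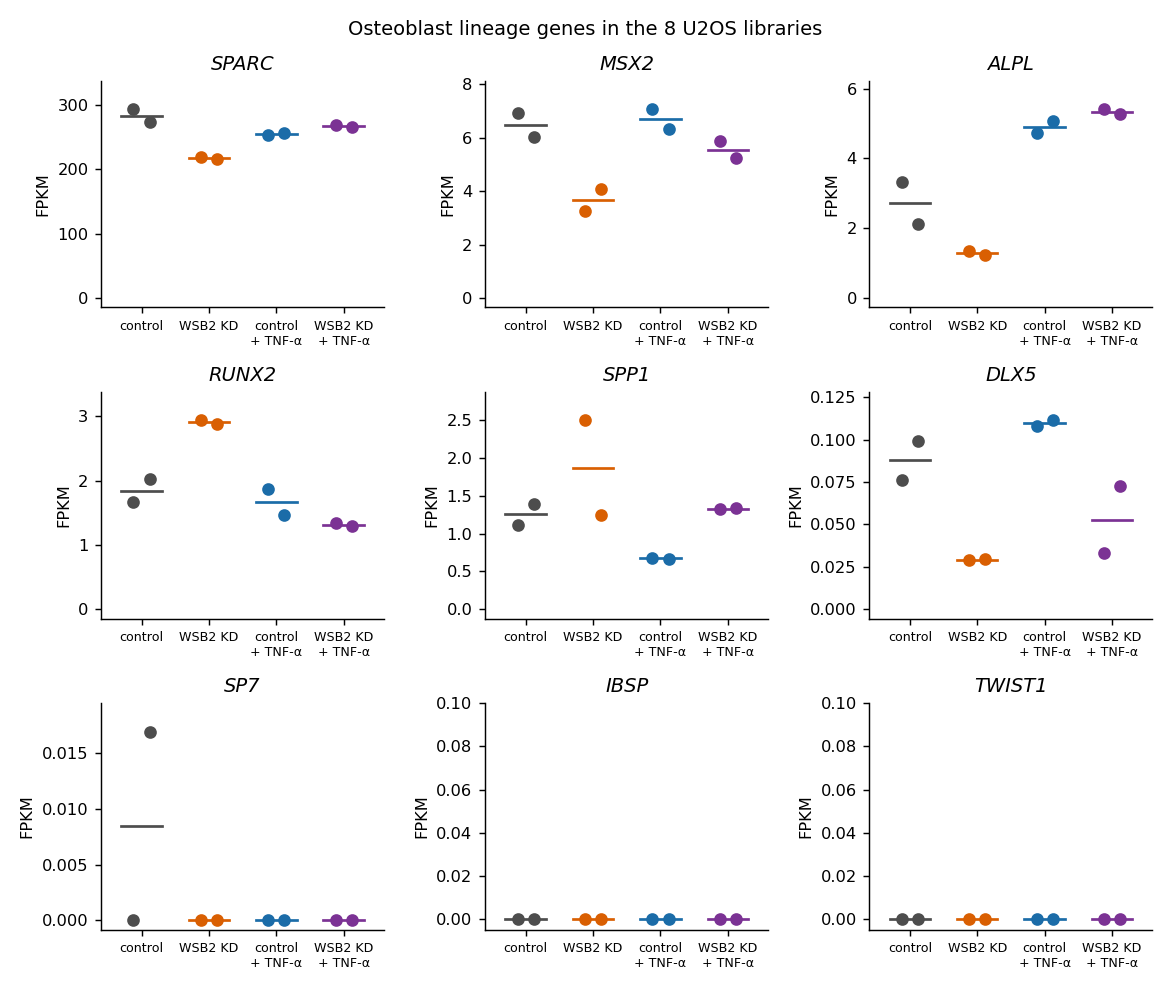
FPKM of the 9 genes in each of the 8 libraries, by group on the x axis; points are libraries and horizontal lines the mean of the 2 libraries, and each panel has its own y scale. SPARC sits between 216.1 and 293.2 FPKM, ALPL between 1.22 and 5.41, DLX5 at no more than 0.111, and SP7, IBSP and TWIST1 lie at or next to 0.

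RUNX2, the lineage's central transcription factor, rose on knockdown without TNF-α and fell on TNF-α in KD cells. Its levels were 1.66 and 2.02 FPKM in control cells, 2.94 and 2.88 in KD cells, 1.86 and 1.47 in control cells with TNF-α, and 1.34 and 1.29 in KD cells with TNF-α. The unstimulated KD libraries were the highest of the 8 and did not overlap with any other group. Without TNF-α RUNX2 rose on knockdown from 1.84 ± 0.257 to 2.91 ± 0.0382 FPKM (SD, n = 2), 1.58-fold. The log2 fold change of FPKM + 1 was 0.46 (SE 0.117, limma adjusted p = 0.0101), and it was 0.32 (adjusted p = 0.0291) with the GC and length correction. That scale, used for every log2 value here, understates changes of low genes. On TNF-α in KD cells RUNX2 fell by 0.76 on the log2 scale (SE 0.117, limma adjusted p = 0.00088), and by 0.68 (adjusted p = 0.0011) with the correction. In control cells the TNF-α difference was -0.09 (SE 0.117, adjusted p = 0.754) and the libraries overlapped. On the opposite strand RUNX2 overlaps AL096865.1, SUPT3H and RUNX2-AS1, which had 36, 19 and 0 reads against its own 2210. The strand used in counting is not given in the sources used here, and no exon base of RUNX2 is shared.

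MSX2, a homeodomain factor of osteoblast progenitors and cranial sutures, moved the other way on knockdown. Control cells had 6.94 and 6.01 FPKM, KD cells 3.24 and 4.06, control cells with TNF-α 7.06 and 6.31, and KD cells with TNF-α 5.86 and 5.24. Both unstimulated KD libraries were below the other 6. MSX2 fell on knockdown without TNF-α from 6.47 ± 0.657 to 3.65 ± 0.578 FPKM (SD, n = 2), to 0.565 of the control level. The log2 difference was -0.69 (SE 0.125, limma adjusted p = 0.0022) and -0.41 (adjusted p = 0.0210) with the GC and length correction. In KD cells MSX2 rose on TNF-α by 0.50 (SE 0.125, limma adjusted p = 0.0095), a call that was lost with the correction (0.22, adjusted p = 0.142), with total-read scaling (0.19, adjusted p = 0.216), without replicate 1 of the unstimulated KD cells (0.37, adjusted p = 0.0670) and without replicate 1 of the stimulated KD cells (0.43, adjusted p = 0.0670). In control cells the TNF-α difference was 0.04 (adjusted p = 0.910), and its sign turned when the libraries were scaled to their total reads (-0.02).

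ALPL, which makes the phosphatase used as the standard osteoblast marker, had the largest TNF-α difference of the 5 genes tested. It stood at 3.33 and 2.13 FPKM in control cells, 1.34 and 1.22 in KD cells, 4.72 and 5.07 in control cells with TNF-α, and 5.41 and 5.28 in KD cells with TNF-α. All 4 stimulated libraries were above all 4 unstimulated ones. In KD cells ALPL rose on TNF-α from 1.28 ± 0.0842 to 5.34 ± 0.0902 FPKM (SD, n = 2), 4.17-fold. The log2 fold change was 1.48 (SE 0.153, limma adjusted p = 0.00015) and 0.85 (adjusted p = 0.0006) with the GC and length correction. In control cells ALPL was 1.79 times as high with TNF-α, but the log2 fold change of 0.68 (SE 0.153, limma adjusted p = 0.0546) did not pass the threshold of 0.05. The 2 unstimulated control libraries differed from each other by more than their counting intervals, which were 2.82 to 3.90 and 1.75 to 2.57 FPKM (exact Poisson, 95%, counting error only). With replicate 1 of these left out the difference passed at 0.91 (adjusted p = 0.0061), and with replicate 2 left out at 0.45 (adjusted p = 0.0387). It passed under 5 of 14 alternatives in all, with adjusted p from 0.0061 to 0.280. Without TNF-α, ALPL fell on knockdown to 0.470 of the control level (log2 difference -0.69, SE 0.153, limma adjusted p = 0.0056). With the GC and length correction that difference was -0.10 (adjusted p = 0.471), and the transcripts of ALPL, at 60.0% GC, were the most GC-rich of the 5 genes.

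SPARC, the abundant collagen-binding glycoprotein of bone matrix, varied least relative to its mean. It had 293.2 and 273.3 FPKM in control cells, 219.8 and 216.1 in KD cells, 253.0 and 256.4 in control cells with TNF-α, and 268.3 and 265.6 in KD cells with TNF-α. The unstimulated KD libraries were again the lowest. SPARC fell on knockdown without TNF-α from 283.2 ± 14.0 to 217.9 ± 2.58 FPKM (SD, n = 2), to 0.769 of the control level (log2 difference -0.38, SE 0.0909, limma adjusted p = 0.0083). The difference was -0.22 (adjusted p = 0.0303) with the GC and length correction, but -0.09 (adjusted p = 0.305) when the libraries were scaled to their total reads, and the call was also lost without replicate 2 of the unstimulated KD cells (adjusted p = 0.0558) and when the fit held the 4 libraries compared alone (adjusted p = 0.0874). On TNF-α in KD cells SPARC rose by 0.29 (SE 0.0909, limma adjusted p = 0.0239). This call was lost with the correction (0.09) and whenever any 1 of the 4 libraries was left out (adjusted p = 0.0839 to 0.139), and with total-read scaling the sign turned (-0.09). In control cells the TNF-α difference was -0.15 (adjusted p = 0.451). SPARC shares 7.89% of its exon bases with CLMAT3 on the opposite strand, which had 15 reads against 166510.

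SPP1, the phosphoprotein osteopontin, passed the threshold in no comparison. Its values rested on 24 to 115 reads per library and were 1.12 and 1.39 FPKM in control cells, 2.50 and 1.25 in KD cells, 0.677 and 0.671 in control cells with TNF-α, and 1.32 and 1.34 in KD cells with TNF-α. The unstimulated KD libraries did not agree, with counting intervals of 2.06 to 3.0 and 0.944 to 1.62 FPKM. Without TNF-α the log2 difference on knockdown was 0.32 (SE 0.189, limma adjusted p = 0.182). It was 0.09 (adjusted p = 0.729) with the GC and length correction. Without replicate 1 of the unstimulated KD cells it was -0.0021, and without replicate 2 it was 0.64 and passed (adjusted p = 0.0090). The TNF-α difference was -0.43 (SE 0.189, adjusted p = 0.295) in control cells and -0.27 (SE 0.189, adjusted p = 0.246) in KD cells, and the latter was 0.0091 with the correction and passed at -0.59 (adjusted p = 0.0103) without replicate 2 of the unstimulated KD cells.

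With TNF-α present, where no unstimulated library enters the difference, none of the 5 genes differed between KD and control cells at the threshold. SPP1 was 1.97 times as high in KD cells, with a log2 fold change of 0.48 (95% interval 0.04 to 0.92, limma unadjusted p = 0.0369, adjusted p = 0.574). The other 4 differences were 0.11 for ALPL (95% interval -0.25 to 0.46), 0.07 for SPARC (-0.14 to 0.28), -0.20 for RUNX2 (-0.47 to 0.07) and -0.23 for MSX2 (-0.52 to 0.06). The libraries of the 2 groups did not overlap for 5 of the 5 genes, as they did not for 46.2% of all genes tested.

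Across the comparisons, which share libraries and are therefore not independent of each other, the 5 genes were called as follows at an adjusted p under 0.05. On knockdown without TNF-α, 1 rose (RUNX2) and 3 fell (MSX2, ALPL and SPARC), where 29.8% of the 16528 genes tested rose and 30.2% fell. On knockdown with TNF-α 0 were called by limma and 0 by voom, SPP1 being the 1 gene with an unadjusted p under 0.05, against 0.0605% of all genes higher and 0.0545% lower. TNF-α in control cells called 0 of the 5 by limma and 1 by voom, ALPL, which also was the 1 gene with an unadjusted p under 0.05, against 3.1% of all genes higher and 1.14% lower. TNF-α in KD cells called 3 higher (ALPL, MSX2 and SPARC) and 1 lower (RUNX2), against 31.1% and 31.4%. The groups did not overlap for 4 of the 5 genes on knockdown without TNF-α, 3 on TNF-α in control cells and 4 on TNF-α in KD cells, against 79.8%, 42.5% and 84.8% of all genes. The median log2 difference of the 5 genes was -0.38 on knockdown without TNF-α, 0.07 with it, -0.09 on TNF-α in control cells and 0.29 in KD cells, and over all genes tested it was -0.0010, -0.00015, 0.0085 and -0.0149. With so large a share of all genes called in the comparisons that use unstimulated KD cells, 4 of 5 called is no result about these genes in particular.

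**Figure D2:**
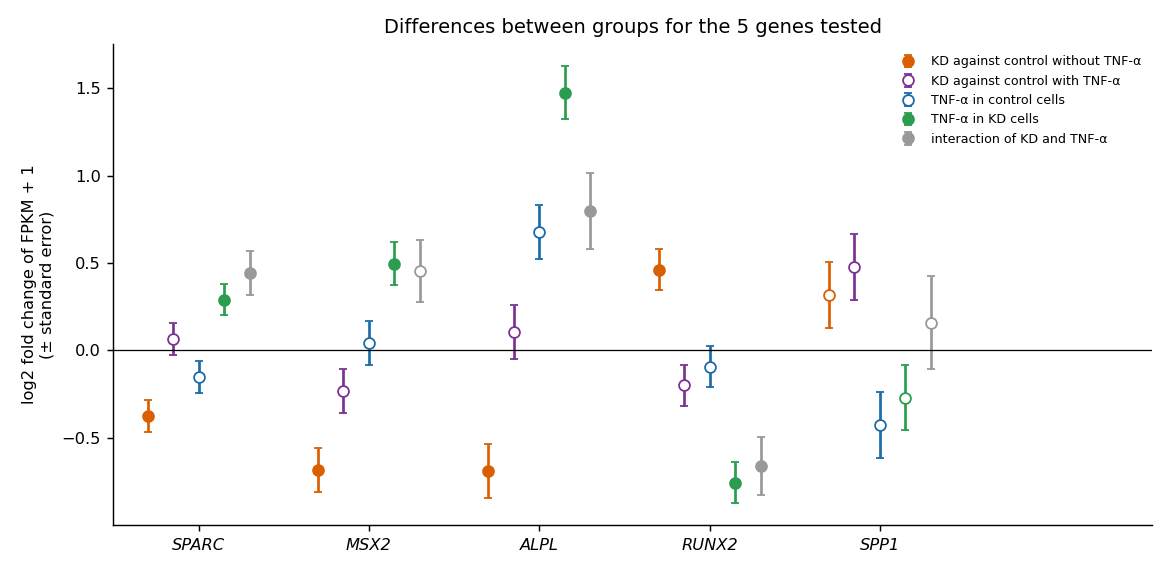
Log2 fold change of FPKM + 1 with its standard error for SPARC, MSX2, ALPL, RUNX2 and SPP1 in the 4 comparisons and the interaction; filled points have an adjusted p under 0.05. Without TNF-α RUNX2 is at 0.46 and MSX2 and ALPL at -0.69, while all 5 points for knockdown with TNF-α are open and lie between -0.23 and 0.48.

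The interaction, the knockdown difference with TNF-α minus that without it, tests whether the knockdown differences themselves differ. It passed for ALPL at 0.80 (SE 0.217, limma adjusted p = 0.0193), for RUNX2 at -0.66 (SE 0.166, adjusted p = 0.0137) and for SPARC at 0.44 (SE 0.129, adjusted p = 0.0246), where 23.8% of all genes passed in the positive and 22.3% in the negative direction. MSX2 (0.46, adjusted p = 0.0689) and SPP1 (0.16, adjusted p = 0.652) did not pass. With the GC and length correction RUNX2 remained past the threshold (-0.54, adjusted p = 0.0235), while ALPL (0.21, adjusted p = 0.315) and SPARC (0.27, adjusted p = 0.0684) did not, and SPARC also missed it with total-read scaling (0.14, adjusted p = 0.305). RUNX2 missed it without replicate 1 of the stimulated control cells (adjusted p = 0.0545) or replicate 2 of the stimulated KD cells (adjusted p = 0.0505). ALPL missed it without replicate 2 of the unstimulated KD cells, replicate 1 of the stimulated control cells or either stimulated KD library (adjusted p = 0.0538 to 0.0671). SPARC missed it without any 1 of the 6 libraries other than the unstimulated control cells (adjusted p = 0.0665 to 0.109), and MSX2 passed without replicate 2 of the unstimulated control cells (0.55, adjusted p = 0.0378).

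By the thresholds in the study's methods, which ask for a log2 fold change beyond 1 in either direction and an unadjusted P-value under 0.05, ALPL on TNF-α in KD cells was called and no other of the 5 genes in any comparison on the scale of log2(FPKM + 1), which shrinks changes of low genes. On other scales more values passed 1. ALPL on knockdown without TNF-α was at -1.002 with a pseudocount of 0.1 and -1.03 with voom, RUNX2 on TNF-α in KD cells was at -1.09 and -1.14 with these and -1.02 with total-read scaling, and the ALPL interaction was 1.13 and 1.16 with the first pair. In the limma fit of log2(FPKM + 1), 11.9% of all genes met these thresholds on knockdown without TNF-α and 0.109% with it. The shares were 1.1% on TNF-α in control cells, 14.4% in KD cells and 12.5% for the interaction. The study called genes with edgeR, so its own counts need not be the same.

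The knockdown differences without TNF-α followed the GC content of the transcripts over the genes tested, and those with TNF-α did not. SPP1 transcripts were 43.4% GC, those of RUNX2 48.1%, SPARC 51.2%, MSX2 51.4% and ALPL 60.0%. The 2 genes with the least GC, SPP1 and RUNX2, had positive differences without TNF-α and the other 3 negative ones. RUNX2 and MSX2 lay off the running median of genes of like GC content, on opposite sides of it, and ALPL lay close to it. When libraries were scaled to total reads instead of the authors' factors, the median over the genes tested shifted to 0.13 for knockdown without TNF-α, to -0.19 on TNF-α in KD cells and to -0.14 for the interaction. The calls then split into 6515 higher and 3456 lower in place of 4932 and 4996 for the first, 3309 and 7240 in place of 5141 and 5187 for the second, and 2440 and 4966 in place of 3935 and 3679 for the third. For TNF-α in control cells the split was 379 and 250 in place of 512 and 189, and with upper-quartile scaling it was 393 and 235. The signs of RUNX2, MSX2 and ALPL in the comparisons where they were called held under each of these scalings.

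**Figure D3:**
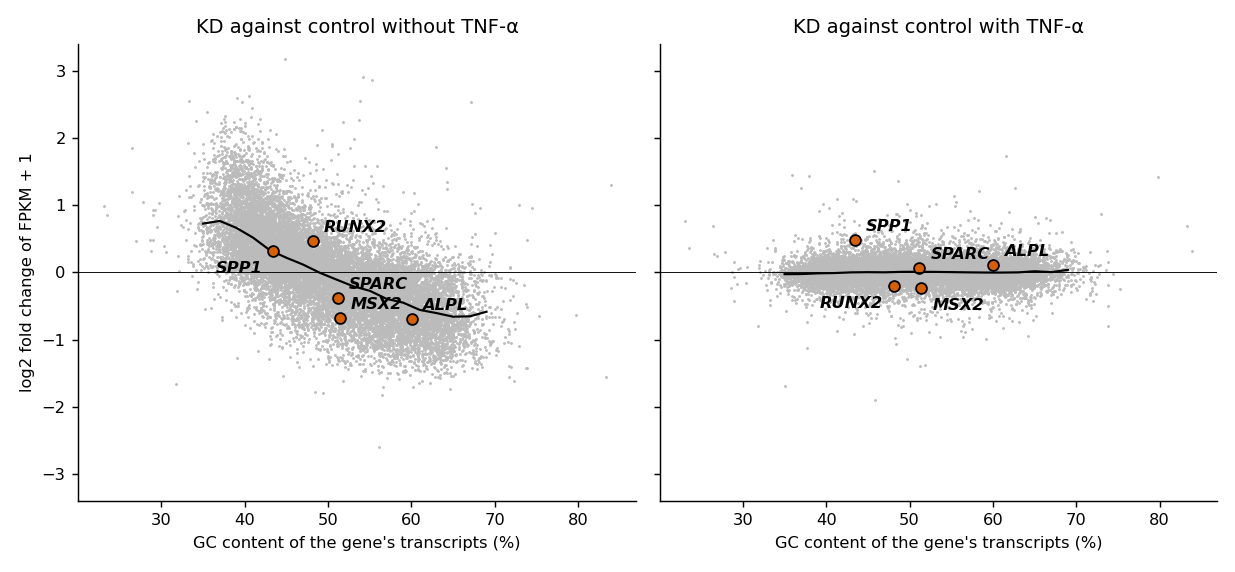
Log2 fold change of FPKM + 1 on knockdown, without TNF-α (left) and with it (right), against the GC content of each gene's transcripts in percent; grey points are all genes tested, the line is their running median in bins of GC content, and orange points are the 5 osteoblast lineage genes. Without TNF-α the line falls with GC content and ALPL, at 60.0% GC, sits near it at -0.69, while with TNF-α the line is flat and the 5 genes lie between -0.23 and 0.48.

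The rest of the osteoblast programme was described with lists of 104 other genes, in which genes were counted as on from a mean of 1 FPKM. The numbers of genes on are to be read against the 10286 of 19951 protein-coding genes given above. Each list's counts are to be read against the shares of all genes called, which were 29.8% higher and 30.2% lower on knockdown without TNF-α, 31.1% and 31.4% on TNF-α in KD cells, 23.8% positive and 22.3% negative in the interaction, and 3.1% and 1.14% on TNF-α in control cells. Of 15 other bone transcription factors and partners, 10 were on. ATF4, which drives late osteoblast genes and amino acid metabolism, was highest at 201.1 FPKM, followed by CBFB, the partner subunit that RUNX proteins need for DNA binding, at 31.4, and the paired-related homeobox gene PRRX2 at 26.0. TWIST2 was read at 5.05 FPKM where TWIST1 had no read, and the DLX genes DLX3 (0.00266 FPKM) and DLX6 (0) stood below DLX5. FOXC2 had 0 reads. On knockdown without TNF-α 6 of the 12 tested rose and 4 fell, with YAP1, a Hippo pathway co-activator, at 0.86 (adjusted p = 0.0010), PRRX2 at -1.26 (adjusted p = 0.00048), ATF4 at -0.81 (adjusted p = 0.00044) and MSX1, the paralogue of MSX2, at -0.70 (adjusted p = 0.0015). With the GC and length correction 2 rose and 4 fell, PRRX2 was at -0.60, ATF4 at -0.37 and MSX1 no longer passed (-0.09). On TNF-α in KD cells 4 rose, among them PRRX2 at 1.42, MSX1 at 1.28 and ATF4 at 0.88, and 4 fell, among them the Wnt effector TCF7L2 at -0.79. The correction gave 5 and 3, with PRRX2 at 0.72, MSX1 at 0.66 and ATF4 at 0.42. In the interaction 3 were positive and 2 negative, with and without the correction, but the positive genes were not the same. With it MSX1 was lost (from 0.86 to 0.26, limma adjusted p = 0.0644). PRRX1, at 0.415 FPKM on average, passed with it (from -0.05 to 0.41, limma adjusted p = 0.0410). TNF-α in control cells called 0 of the 12 by limma, 1 by voom, 3 at an unadjusted p under 0.05, and 1 higher and 1 lower with the correction, with a median difference of 0.05.

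Of 21 other genes of the bone matrix and its collagen machinery, 14 were on. COL1A1, the α1 chain of type I collagen, was at 231.0 FPKM, FN1 (fibronectin) at 126.4 and the collagen chaperone SERPINH1 at 121.5. COL1A2, the partner chain of type I collagen, was at 0.0547 FPKM, 0.00929 to 0.0934 over the libraries, so that the COL1A1 mean was 4224 times that of COL1A2 and the ratio in single libraries was 2676 to 18513. DCN, FMOD, POSTN and OMD were below 0.1 FPKM. BGLAP (osteocalcin), the late osteoblast marker, was at 0.160 FPKM with 25 reads in all, and 33.4% of its exon bases are shared with PAQR6 and the read-through gene PMF1-BGLAP. On knockdown without TNF-α 2 of 16 tested rose, including FN1 at 0.69 (adjusted p = 0.0169), and 8 fell, including the proteoglycan BGN at -0.92 (adjusted p = 0.00054), SERPINH1 at -0.87 (adjusted p = 0.00021) and the prolyl hydroxylase P3H1 at -0.66 (adjusted p = 0.00036). Of these BGN did not pass with the GC and length correction (-0.29, adjusted p = 0.0673), which left 2 higher and 5 lower, SERPINH1 at -0.46 and P3H1 at -0.39. On TNF-α in KD cells 9 rose and 1 fell, with SERPINH1 at 0.80, the collagen chaperone FKBP10 at 0.79, the matrix glycoprotein TNC at 0.78 and P3H1 at 0.60. The correction gave 7 and 0, with SERPINH1 at 0.29, FKBP10 at 0.22 and P3H1 at 0.24. Not all of the 7 were among the 9. COL1A1 (0.06), COL5A1 (0.13), BMP1 (0.08) and BGN (-0.20) were no longer called. LUM turned from lower at -0.34 (limma adjusted p = 0.0300) to higher at 0.36 (limma adjusted p = 0.0321). MGP was called higher only with the correction (0.42, limma adjusted p = 0.0066). TNC missed the threshold with total-read scaling (0.41, adjusted p = 0.0810). TNC was the 1 gene of the list called on TNF-α in control cells (0.74, adjusted p = 0.0492), and it missed the threshold with total-read scaling (adjusted p = 0.0989). With the correction 2 of the list were called there. The interaction was positive for 6, led by SERPINH1 at 0.81, and negative for LUM (lumican) at -0.84. With the correction it was positive for 4 and negative for 0, with SERPINH1 at 0.39 and LUM at -0.18 (adjusted p = 0.434). The 4 were not all among the 6, since COL1A1 (0.09), FKBP10 (0.22) and BMP1 (0.15) were no longer called.

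Among 7 genes that handle phosphate and pyrophosphate in mineralization, 5 were on, led by the phosphate transporter SLC20A1 at 44.5 FPKM and the pyrophosphate transporter ANKH at 5.15, with SLC20A2 at 4.31 and the matrix vesicle phosphatase PHOSPHO1 at 2.03. Knockdown without TNF-α had 2 higher and 1 lower, and TNF-α in KD cells 3 higher and 1 lower, the last being ENPP1, which makes the pyrophosphate that ALPL removes, at -0.53 (adjusted p = 0.0037). The correction put ENPP1 at 0.05, and the counts were 2 higher and 2 lower on knockdown and 4 and 1 on TNF-α in KD cells. These counts cover other genes than those without the correction. On knockdown SLC20A1 (0.11) and ENPP1 (-0.14) were no longer called. PHOSPHO1 turned from lower at -0.36 (limma adjusted p = 0.0390) to higher at 0.32 (limma adjusted p = 0.0450). SMPD3 higher, and ANKH and PHEX lower, were called only with the correction. SMPD3 and PHEX stood at 0.134 and 0.0629 FPKM on average. The interaction had 1 positive and 1 negative call, 4 and 1 with the correction, and TNF-α in control cells had 0 by limma, by voom and at an unadjusted p under 0.05.

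Osteocyte genes were mostly silent: PDPN (podoplanin) at 13.1 FPKM and the secretory kinase FAM20C at 6.19 were on, and DMP1, MEPE, SOST, FGF23 and DSPP were below 0.1. SPP1 is 1 of 5 genes of the SIBLING family of acidic mineral-binding proteins that lie within 374.9 kb of chromosome 4. In order along the chromosome DSPP had 1 read, DMP1 0, IBSP 0, MEPE 1 and SPP1 417, so SPP1 alone of this cluster was expressed. FAM20C fell on knockdown without TNF-α (-0.70, adjusted p = 0.00080) and rose on TNF-α in KD cells (0.62, adjusted p = 0.0013), and with the GC and length correction it did neither (-0.14 and -0.01). PDPN was also called lower in the first and higher in the second of these comparisons, and FAM20C was called in the interaction (0.85). With the correction 0 of these 2 genes were called in any of the 3, PDPN being at -0.21 and 0.17.

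Of 11 receptors of bone cells and factors that couple them to osteoclasts, 9 were on. CSF1, the macrophage colony-stimulating factor that osteoclast precursors need, was the highest at 16.9 FPKM, then FGFR1 at 13.9 and LRP5 at 8.84. TNFSF11 (RANKL) had 0 reads, and its decoy receptor TNFRSF11B (osteoprotegerin) was at 2.95 FPKM. CSF1 rose on TNF-α in control cells (1.73, adjusted p = 3.5e-05) and in KD cells (2.12, adjusted p = 6.5e-06), from 7.20 to 26.2 and from 5.77 to 28.3 FPKM on average. It was the 1 gene of this list called in control cells by limma, where voom called 2 and the GC and length correction 1 higher and 1 lower. Knockdown without TNF-α had 2 that rose, LRP6 at 1.10 (adjusted p = 0.0016) and TNFRSF11B at 0.78 (adjusted p = 0.0096), and 3 fell. The correction gave 4 higher and 1 lower, with LRP6 at 0.49. In KD cells TNF-α also had FGFR1 higher (0.69) and LRP6 and FGFR2 lower (-0.73 and -0.68), with 3 higher and 2 lower in all. With the correction 2 were higher and 3 lower, FGFR1 was at 0.42 and LRP6 was not called (-0.18, adjusted p = 0.294). The interaction had 3 positive calls, including FGFR1 at 0.51, and 1 negative, LRP6 at -1.16. The correction gave 1 positive, FGFR1 at 0.38, and 1 negative. The negative gene was VDR at -0.44 (limma adjusted p = 0.0266), which was not called without the correction (-0.14). LRP6 was not called with it (-0.55, adjusted p = 0.0652). FGFR1 missed the threshold with total-read scaling (0.23, adjusted p = 0.160). With TNF-α present, knockdown called 0 of the 46 genes tested in these bone lists by limma and 0 by voom, and 8 had an unadjusted p under 0.05. With the GC and length correction 1 was called, the phosphate transporter SLC20A1 (0.49, adjusted p = 0.0317), which had 0.50 (adjusted p = 0.121) without it.

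Markers of other cell types were read to see what else the cells express. In bulk samples fewer cells of a type and less RNA per cell cannot be told apart. None of 10 blood, endothelial and epithelial genes reached 1 FPKM, and EPCAM was the highest at 0.325. The summed level of that list was 1.28 to 1.38 FPKM in control cells, 1.06 to 1.27 in KD cells, 0.780 to 1.06 in control cells with TNF-α and 0.803 to 0.924 in KD cells with TNF-α. PTPRC, CD3E and PECAM1 were at or below 0.0267, and CD68 had 0 reads but shares 85.8% of its exon bases with neighbouring genes, so its 0 may be one of counting. Of 9 chondrocyte genes 2 were on, SOX9, the cartilage master factor, at 30.1 FPKM and MATN3 at 5.96, with ACAN just below at 0.963 and COL2A1, COL9A1, COL10A1 and COMP below 0.1. Of 8 adipocyte genes PPARG (2.95) and LPL (1.49) were on and ADIPOQ, FABP4, PLIN1, LEP and CIDEC were below 0.1. ADIPOQ shares 46.2% of its exon bases with ADIPOQ-AS1, and CEBPA, at 0.644 FPKM, shares 43.4% with AC008738.3 and AC008738.5. Reads there could have been left out of the counting. Of 8 skeletal muscle genes 1 was on, the slow troponin gene TNNT1 at 99.7 FPKM, with MYOD1, MYF5 and MYOG below 0.1. Of 8 osteoclast genes MMP9 (13.4), NFATC1 (9.07) and OSCAR (2.11) were on, while TNFRSF11A (RANK), CALCR and DCSTAMP were below 0.1.

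On knockdown without TNF-α the chondrocyte list had 3 of 5 tested higher, the adipocyte list 1 of 3 lower (CEBPA at -0.58), the muscle list 1 of 3 higher and 2 lower (TNNT1 at -1.28), the osteoclast list 1 of 5 higher and 2 lower, and the blood, endothelial and epithelial list 0 of 5 by limma, 1 by voom and 1 at an unadjusted p under 0.05. MMP9 rose on TNF-α in control cells (2.66, adjusted p = 1.2e-05) and in KD cells (3.12, adjusted p = 3.4e-06), and was the 1 gene of the 5 lists called in control cells, where the correction added 1 adipocyte gene, lower. In KD cells TNF-α had the chondrocyte list with 2 lower, the adipocyte list with 1 lower, the muscle list with TNNT1 higher (1.17) and 1 lower, and the osteoclast list with MMP9, NFATC1 (0.75) and 1 more gene higher and CTSK lower (-0.60). The correction gave 1 higher and 1 lower for the chondrocyte list, 0 and 1 for the adipocyte list, 1 and 2 for the muscle list with TNNT1 at 0.55, 2 and 2 for the osteoclast list with NFATC1 at 0.31. The interaction called 1 chondrocyte gene negative, CEBPA positive (0.61), TNNT1 positive and 1 further muscle gene negative, and 3 osteoclast genes positive, among them NFATC1 (0.51), with CTSK negative (-0.62). With the correction CEBPA was at -0.07 (adjusted p = 0.773) and NFATC1 at 0.19 (adjusted p = 0.172), and the osteoclast list had 0 positive and 2 negative, the chondrocyte list 1 and 0, the adipocyte list 0 and 0 and the muscle list 1 and 2. The blood, endothelial and epithelial list had 0 of 5 in both comparisons by limma, by voom and at an unadjusted p under 0.05, but 3 lower on TNF-α in KD cells and 2 negative in the interaction with the correction. Knockdown with TNF-α called 0 of the 21 genes tested in these lists by limma and 0 by voom, with 5 at an unadjusted p under 0.05. The correction on knockdown without TNF-α put CEBPA at 0.09 and TNNT1 at -0.68, with 2 higher and 1 lower for the chondrocyte list, 0 and 1 for the adipocyte list, 2 and 1 for the muscle list, 4 and 0 for the osteoclast list and 2 and 0 for the blood, endothelial and epithelial list. Some of these corrected calls are of genes with few reads. KRT5, at 0.278 FPKM on average, went from 0.01 to 0.39 (limma adjusted p = 0.0043). ACP5, at 0.166 FPKM, was called lower at -0.20 and, with the correction, higher at 0.40 (limma adjusted p = 0.0025).

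**Figure D4:**
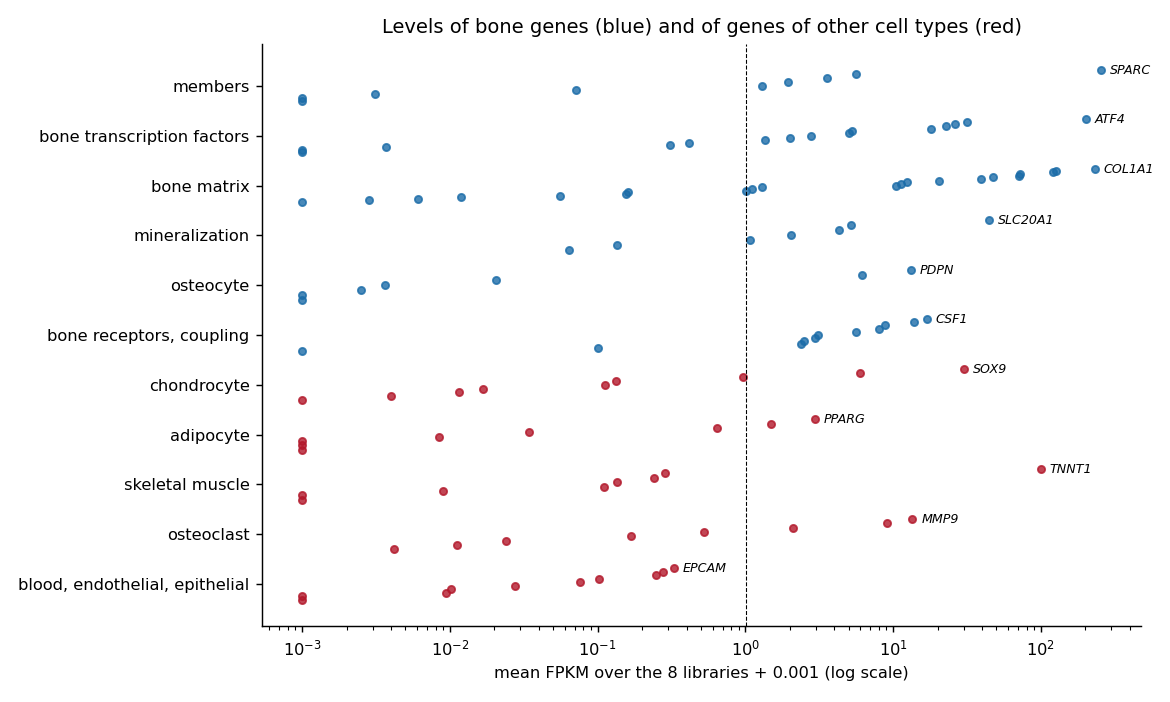
Mean FPKM over the 8 libraries plus 0.001, on a log axis, for the 9 genes and for the other bone lists (blue) and lists of other cell types (red); each point is a gene, the gene with the highest mean is named, and the dashed line marks 1 FPKM. Of the 9 genes 5 lie to the right of the line and 4 below 0.1, and none of the 10 blood, endothelial and epithelial genes reaches it.

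The genes whose profile over the 8 libraries was most like that of each gene tested were looked for among 10286 protein-coding genes with a mean of at least 1 FPKM, by the root mean square difference of the mean-centred log2 values. Nearest to RUNX2 were CDS1 (0.0330) and DHFR2 (0.0363), which like it were highest in the unstimulated KD libraries, CDS1 at 1.76 and 1.58 FPKM there against 0.584 to 1.07 elsewhere. Nearest to ALPL were TBC1D10A (0.0343) and FAM110A (0.0599), with TBC1D10A at 1.13 and 1.04 FPKM in the unstimulated KD libraries and 4.27 to 5.00 in the 4 stimulated ones. MSX2 lay nearest PARVG (0.0482) and PPIE (0.0719), and SPARC nearest CHRNA4 (0.0339) and UBE2R2 (0.0344). SPP1 had no close neighbour, the nearest being TBX10 (0.152) and IGFBP5 (0.154), against a spread of its own profile of 0.314. These are likenesses over 8 libraries that share scaling and GC composition, and are a description.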

How the data were processed

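RNA-seq of 8 U2OS libraries in 4 groups of 2 was used, grouped by the labels. The authors deposited FPKM per gene. The submitters' processing notes name CASAVA 1.8, fastp, HISAT2 2.0.5, featureCounts 1.5.0-p3, DESeq2 1.20.0 and GRCh38, and the study's methods name edgeR for calling genes. FPKM values were whole multiples of 1 read in 100% of cases (tolerance 0.01), which gave back reads and depth. Low genes were filtered (2 or more libraries with 10 reads, scaled to median depth, and 15 reads in all), which left 16528. Because FPKM are not counts, log2(FPKM + 1) was fitted with limma 3.58.1 in R 4.3.3 (4 group means, trended variance, all 8 libraries), with Benjamini-Hochberg adjustment over all genes tested and calls at 0.05. Tested on simulated data, the fit recovered 84.5%, 92%, 87.5%, 86.5% and 31.5% of 200 genes changed 2-fold, in the order KD without TNF-α, KD with TNF-α, TNF-α in control cells, TNF-α in KD cells, and interaction (15836 to 15869 genes each). In the same order it made 9, 16, 13, 11 and 3 false calls. The 200 genes were drawn from those with a mean of at least 1 FPKM, so the recovery rates do not cover lower genes. The simulated libraries had a common spread and equal means apart from the 200 genes. They lacked the GC and scaling differences of the unstimulated KD libraries, so these rates need not hold for comparisons that use those libraries. Counting intervals are exact Poisson.

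All 9 genes are described. From the other lists, genes called with an absolute log2 fold change above 0.5 were named, at most 4 per list and comparison, with the 3 highest genes and silent markers. The members and lists were chosen with earlier results of these data known. Alternatives tried were the pseudocount, filters, total-read and upper-quartile scaling, a GC and length correction, voom, fewer libraries, the replicate block and the study's thresholds. Correlations between groups of the difference between replicates were -0.19 to 0.35, the highest between the unstimulated control and KD cells. With 2 libraries a group they cannot exclude that replicate numbers pair libraries.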

Additional observations from a re-analysis of the deposited data

Results flagged for a closer look

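For 3 genes the knockdown difference with TNF-α differed from that without it by a test of the difference itself (limma interaction). ALPL had a difference of 0.80 (adjusted p = 0.0193), from -0.69 without TNF-α to 0.11 with it. RUNX2 had -0.66 (adjusted p = 0.0137), from 0.46 to -0.20. SPARC had 0.44 (adjusted p = 0.0246), from -0.38 to 0.07. All 3 rest on the unstimulated KD libraries, and of all genes tested 23.8% passed the same test in the positive and 22.3% in the negative direction. With the GC and length correction RUNX2 alone of these 3 passed, and with total-read scaling SPARC was at 0.14 (adjusted p = 0.305) and ALPL and RUNX2 passed. With 2 libraries a group, no single library could be checked against the rest of its group.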

How the results depend on the processing

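Over the alternatives, 301 of 350 values for single genes kept their direction and side of the threshold, 30 lost and 8 gained significance, and 11 turned sign, none of the 11 past the threshold. On knockdown without TNF-α 0 of the 5 genes were called by the study's thresholds, and SPP1 was -0.0021 to 0.64 with a library left out. On TNF-α in control cells 1 was called, ALPL, with a mean of at least 1 FPKM, the GC and length correction or voom, and 0 to 1 with a library left out. There MSX2 was -0.0186 with upper-quartile and -0.0245 with total-read scaling and -0.0477 to 0.13 with a library left out, and RUNX2 -0.20 to 0.0138. On TNF-α in KD cells 2 were called with total-read scaling or the GC and length correction, 1 by the study's thresholds and 2 to 4 with a library left out. There SPARC was -0.0872 with total-read scaling, and SPP1 was 0.0091 with the GC and length correction and -0.59 to 0.0496 with a library left out. In the interaction 1 was called with the correction, 0 by the study's thresholds and 0 to 4 with a library left out, and SPP1 was -0.0488 with total-read scaling and -0.16 to 0.48 with a library left out. The cause was not tested in each case. Where a library was left out, its group's remaining library was assumed to vary like the other groups.

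The replicate block changed no call of the 5 genes. With it 10 of all genes were called on knockdown with TNF-α, against 19 without, 64 with the GC and length correction, 52 with voom, 39 with the 4 libraries compared, 7 with no filter, 7 without the unstimulated KD libraries and 0 to 3 with a library left out. TNF-α in control cells called 701, against 368 with no filter, 238 with the 4 libraries compared, 443 without the unstimulated KD libraries, 182 by the study's thresholds and 229 to 2130 with a library left out. The study's thresholds, applied to the limma fit, called 1974 for 9928 on knockdown without TNF-α, 2374 for 10328 on TNF-α in KD cells and 2058 for 7614 in the interaction. Ranked within libraries, 1 of 4 neighbouring pairs by level held in all 8. Depth limits DLX5, SP7, IBSP and TWIST1, at 0 to 3 reads a library.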
